A study of Mus musculus with 208 samples.

Results

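The 10 core circadian clock genes Per1, Per2, Per3, Cry1, Cry2, Arntl, Clock, Nr1d1, Nr1d2 and Dbp were taken by symbol from the 46403 genes in the count tables of 4 mouse brain regions. All 10 had counts in the hypothalamus, and 9 of the 10 had counts in the hippocampus, the prefrontal cortex (PFC) and the striatum. C57BL/6NTac dams had received morphine at 10 mg/kg/day from an osmotic minipump or saline, the pups were raised by surrogate dams that had received no drug, and the pups were given 10 mg/kg morphine or saline under the skin 2 times a day from postnatal day 1 to 14. As adults the mice received lipopolysaccharide (LPS), a bacterial cell wall component that sets off an immune response, or saline, and tissue was taken 2 h later. The 4 groups are named by perinatal exposure, then adult challenge: SAL–SAL and MOR–SAL received saline as adults, and SAL–LPS and MOR–LPS received LPS. Each library held RNA from about 5000 NeuN+ nuclei (NeuN is the neuronal nuclear protein encoded by Rbfox3) of 1 region of 1 animal, so the values are nuclear RNA and the effect of fewer cells of a type cannot be told apart from that of less RNA per cell. In this order, the hypothalamus had 11, 14, 12 and 14 libraries, the hippocampus 13, 12, 14 and 16, the PFC 10, 12, 10 and 16, and the striatum 13, 8, 15 and 18. The 208 libraries, 107 of them from females, came from 71 animals, 38 having received LPS and 33 saline. The replicate labels hold a pair of numbers, the first of which is read here as the litter, a reading the labels do not state. It gives 18 litters, none with both exposures and 17 with both challenges. The study's methods count more litters, so the reading may not match theirs. The mice were kept on a 12 h light and 12 h dark cycle with lights on at hour 7. The study's methods place the adult injections of its immune challenge cohort shortly after the start of the dark phase, which puts tissue collection 2 h later in the early dark phase. A time for each library is not given in the sources used here.

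The molecular clock is a transcriptional feedback loop found in nearly all cells. CLOCK and BMAL1, the product of Arntl, bind E-box sequences and activate the Per and Cry genes, whose proteins return to the nucleus and repress CLOCK and BMAL1. A second loop runs through the nuclear receptors REV-ERBα and REV-ERBβ, products of Nr1d1 and Nr1d2, which repress Arntl. DBP is a transcription factor driven by the loop that carries the rhythm to output genes. The suprachiasmatic nucleus of the hypothalamus sets the phase of the body's clocks, and Per1 can also be induced acutely, among others by neuronal activity and glucocorticoids.

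Cry1, Cry2 and Per1 were the members higher after LPS, so the E-box and E′-box letters found in their promoter windows are shown, together with that of Nr1d1, which did not pass the test. The windows are RefSeq's, on GRCm38.p6, from 250 bases before to 50 bases after each annotated start, and 9 of the 10 genes had one. Capitals mark CACGTG (E-box) or AACGTG (E′-box, searched as CACGTT on both strands) within 30 bases, written on the gene's strand:
Per1 E-box, chr11:69098771-69098800, plus strand: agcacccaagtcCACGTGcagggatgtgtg
Cry1 E-box, chr10:85185097-85185126, minus strand: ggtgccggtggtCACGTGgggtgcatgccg
Cry1 E′-box, chr10:85185116-85185145, minus strand: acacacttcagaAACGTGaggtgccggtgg
Cry2 E′-box, chr2:92434218-92434247, minus strand: acacatggtgggAACGTGagggggcggagc
Nr1d1 E′-box, chr11:98775388-98775417, minus strand: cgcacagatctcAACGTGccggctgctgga
The letters in capitals begin 166 bases before the start in Per1 and Cry2, 60 and 79 bases before it in Cry1, and 28 bases before it in Nr1d1. On mm10 the whole genes lie at chr11:69095217-69109960 (Per1, plus strand), chr10:85131700-85185064 (Cry1, minus strand), chr2:92403646-92434043 (Cry2, minus strand) and chr11:98767932-98775333 (Nr1d1, minus strand), so the Per1 window shown belongs to a start inside the gene. The CACGTG letters were found in 7.15% of the 32851 windows of all genes and the CACGTT letters in 4.68%. Of the members with a window, Per1 (in 1 of its 2 windows) and Cry1 held CACGTG, and Per3, Cry2, Arntl, Clock, Nr1d1, Nr1d2 and Dbp did not hold it in these windows. For the second loop, the half-site AGGTCA of nuclear receptors, present in 16.3% of windows, was found in windows of Per1, Arntl, Clock and Nr1d2, and not in those of Per3, Cry1, Cry2, Nr1d1 and Dbp. These matches describe letters in a short window.

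Total counts per library spanned 7673 to 35077048 (hypothalamus), 227025 to 24071488 (hippocampus), 3056648 to 21988203 (PFC) and 5954700 to 92945090 (striatum). In 8 libraries (3 of the hypothalamus, 2 of the hippocampus and 3 of the PFC) the total lay under 0.5 of the region's median, and 6 libraries (4 of the hippocampus, 2 of the PFC) went against their labelled sex. A sum over hypothalamic marker genes had a median of 41.0 normalized CPM (counts scaled to library size) in hypothalamus libraries, against 6.07 for hippocampus, 10.3 for PFC and 9.92 for striatum libraries. Of 6 markers of the suprachiasmatic nucleus, Vip had no count in 23 of the 51 hypothalamus libraries, Nms in 33, Prok2 in 38 and Six6 in 31, whereas Lhx1 had none in 7 (median 8.67, against 0 to 0.38 in the other regions) and Rorb none in 2 (median 32.6, against 30.3 to 112). Their sum had a median of 48.3 (0 to 177). The neuronal gene Rbfox3 had a median of 119 in the hypothalamus against 1342, 2162 and 1482 in the hippocampus, PFC and striatum, and genes that brain tissue expresses widely, among them Tubb3 and Gfap, stand at 0 throughout the tables of those 3 regions. For the hypothalamus against another region, the tissue and the making of the table cannot be told apart.

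Among the repressors of the loop, Per1 was the most abundant member per length outside the hypothalamus, at a mean of 27.4 CPM per kb of exon (hippocampus), 44.1 (PFC) and 26.7 (striatum). In the hypothalamus it stood at 33.8, followed by Per3 at 24.9 and Cry2 at 23.9. Cry1 was the least abundant member in the hypothalamus, at 2.36 CPM per kb, and Dbp was the least abundant in the hippocampus (4.70) and the striatum (6.66). In the PFC, Cry1 was lowest at 5.23, below Clock at 6.37 and Dbp at 8.66. These means leave out the 8 libraries of low depth.

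**Figure D1:**
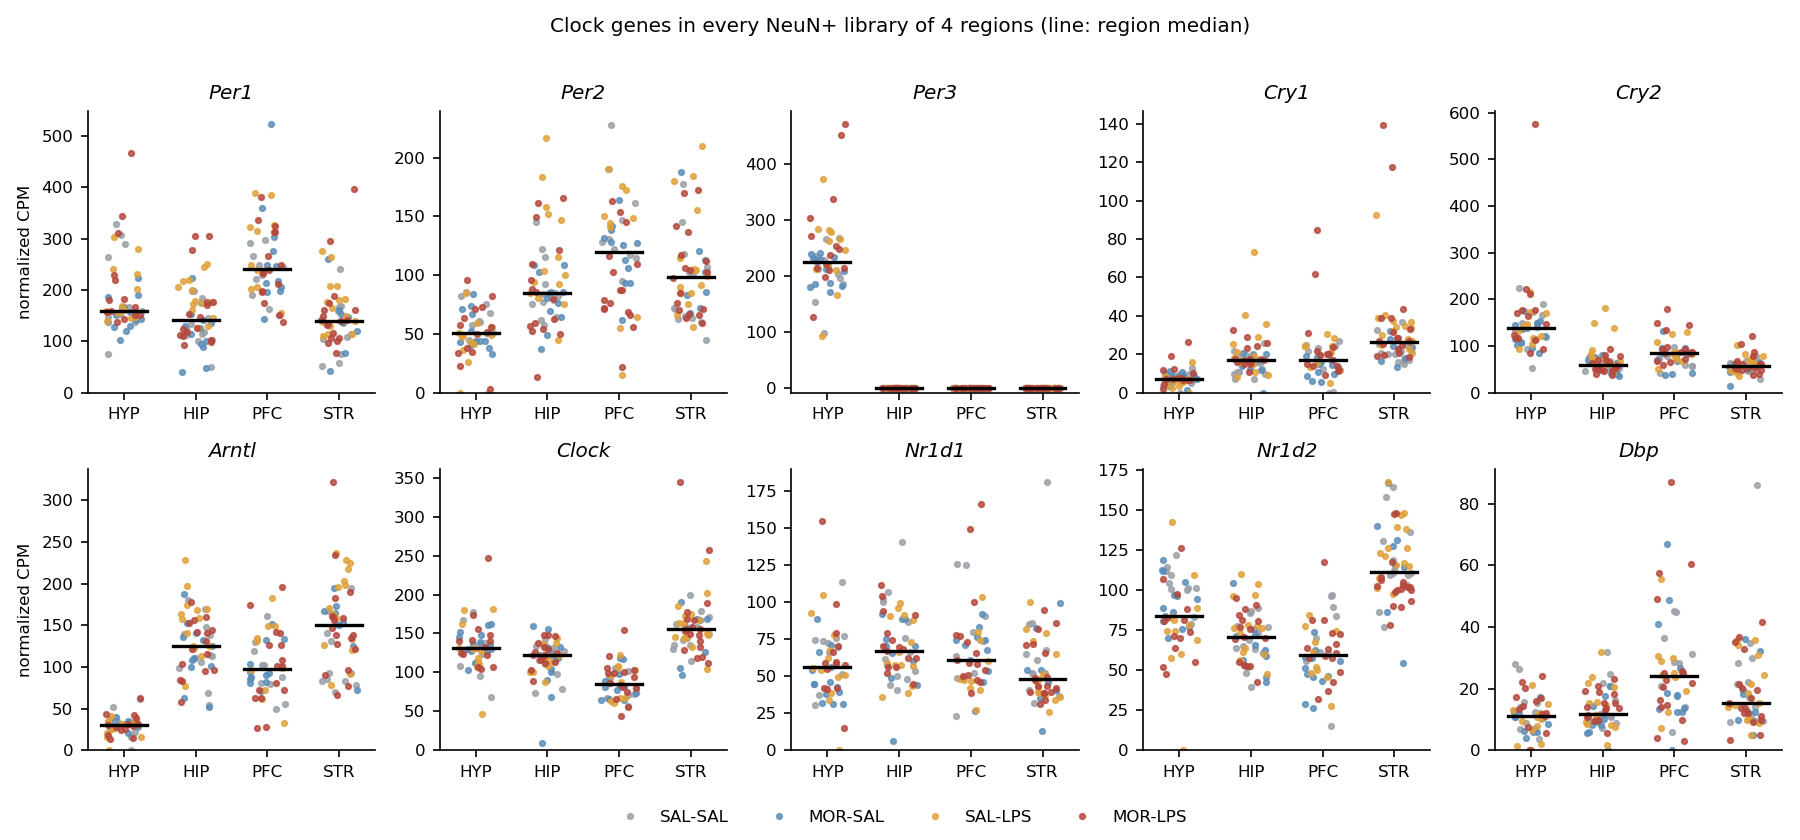
Normalized CPM of the 10 clock genes in every library, one panel per gene, with regions on the x axis (HYP, hypothalamus; HIP, hippocampus; STR, striatum), points coloured by group and a black line at the regional median. Arntl is lowest in the hypothalamus (median 30.8) and highest in the striatum (median 151), Cry2 is highest in the hypothalamus (median 139.1), and Per3 has values above 0 in the hypothalamus alone.

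Levels by library are given as normalized CPM on 1 scale for all 208 libraries, as the median with the lowest and highest library. Per1, the period gene that responds most readily to acute signals, had a median of 159.6 (76.0 to 466) in the hypothalamus, then 141 (39.4 to 305) for the hippocampus, 241 (137 to 524) for the PFC and 139.9 (42.8 to 397) for the striatum. Its PFC libraries lay highest, and the regions overlapped widely. Per2, the period gene whose loss most disturbs rhythms in mice, had medians of 50.6 (0 to 96.3), 85.0 (13.6 to 217), 119.9 (14.8 to 228) and 98.8 (44.6 to 210.3) in the same order. It was thus lowest in the hypothalamus, where Per3 was the more abundant paralog at a median of 225 (93.5 to 470.1).

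Of the cryptochromes, the strongest repressors of CLOCK and BMAL1, Cry1 had medians of 6.92 (0 to 26.4) in the hypothalamus, then 16.9 (0 to 73.4), 17.0 (0 to 84.9) and 26.1 (13.4 to 139.5) in hippocampus, PFC and striatum. Cry2 ran the other way, with medians of 139.1 (53.2 to 575), 59.7 (35.6 to 181), 84.0 (36.5 to 179.5) and 57.9 (14.7 to 121). The order of the hypothalamus and the striatum was therefore opposite for the 2 cryptochromes.

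The activators also differed from each other. Arntl had medians of 30.8 (0 to 63.3) in the hypothalamus, then 126 (52.5 to 229), 98.1 (26.3 to 196) and 151 (66.6 to 321) in the same order. Its partner Clock was more even, at 131 (46.7 to 246), 122 (9.85 to 159), 85.0 (44.6 to 154) and 156 (96.5 to 344). Without the libraries of low depth, Arntl in the hypothalamus and in the striatum did not overlap, whereas every other member but Per3 overlapped between every pair of regions. The share of all genes without overlap was not computed. In the fit described below, 65.1% of all genes differed between hypothalamus and striatum, so Arntl cannot be called unusual in this.

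In the second loop, Nr1d1 had medians of 55.9 (0 to 155), 67.2 (6.57 to 140.5), 60.9 (23.1 to 166) and 48.3 (13.2 to 181) in the same order of regions. Nr1d2 had 84.0 (0 to 142), 71.0 (39.4 to 109.7), 59.7 (15.3 to 117) and 111 (54.4 to 167). Dbp, the output gene, had 11.2 (0 to 27.9), 11.7 (0 to 31.95), 24.2 (0 to 86.9) and 15.4 (3.41 to 86.2). Nr1d1 varied least between regions of these 3, and Dbp was highest in the PFC. Nr1d1, Arntl, Cry2 and Dbp each share exonic bases with a gene transcribed in the other direction (Thra, Gm45355, D930015M05Rik and Sphk2), and whether the counting used strand is not given in the sources used here.

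In 1 edgeR quasi-likelihood fit of all libraries, with Benjamini-Hochberg adjustment over 19478 genes, 41 of 54 comparisons of a member between 2 regions passed an adjusted p of 0.05. Regional differences were common among all genes: 65.5% of genes differed between hypothalamus and hippocampus, 67.9% between hypothalamus and PFC, 65.1% between hypothalamus and striatum, 46.3% between hippocampus and PFC, 45.4% between hippocampus and striatum and 52.7% between PFC and striatum. Against these shares, 7, 8, 8, 7, 5 and 6 of the 9 members tested differed in the same order.

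Arntl was lower in the hypothalamus than in the hippocampus (log2 fold change −2.05, adjusted p = 3.04e-45), with −1.73 against the PFC and −2.24 against the striatum. Within the other 3 regions, Arntl was higher in the hippocampus than in the PFC (0.32, adjusted p = 0.00791), and its neighbours in the order, hippocampus and striatum, did not pass (−0.19, adjusted p = 0.118). Cry1 was lower in the hypothalamus too (−1.26, −1.29 and −1.95), higher in the striatum than elsewhere (hippocampus minus striatum −0.68, PFC minus striatum −0.66), and did not pass between hippocampus and PFC (−0.02, adjusted p = 0.946). Cry2 was higher in the hypothalamus (1.19, 0.81 and 1.34), next highest in the PFC, and did not pass between hippocampus and striatum (0.15, adjusted p = 0.162).

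Per1 was higher in the PFC than in each other region, by 0.44 against the hypothalamus and 0.79 against both the hippocampus and the striatum, and these last 2 regions did not pass against each other (0.01, adjusted p = 0.969). Per2 was lower in the hypothalamus (−0.79, −1.17 and −0.95), and neither hippocampus nor PFC passed against the striatum (−0.15, adjusted p = 0.294; 0.22, adjusted p = 0.117). Clock and Nr1d2 shared an order, highest in the striatum, then the hypothalamus, the hippocampus and the PFC. The distance from PFC to striatum was −0.86 for Clock and −0.95 for Nr1d2, and the closest neighbours for Clock, hypothalamus and hippocampus, still passed at 0.19 (adjusted p = 0.0136). Dbp was higher in the PFC than in the hippocampus (hippocampus minus PFC −0.96) and did not pass between PFC and striatum (0.42, adjusted p = 0.052) or hypothalamus and hippocampus (−0.25, adjusted p = 0.224). Nr1d1 passed in 1 pair alone, hippocampus over striatum (0.33, adjusted p = 0.0106).

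Per3, the third period gene, was listed at 0 in all 157 libraries of the hippocampus, PFC and striatum. In the hypothalamus its groups had medians of 211.9 in SAL–SAL, 219 in MOR–SAL, 254 in SAL–LPS and 242 in MOR–LPS. It was not alone in this: of 12491 genes whose hypothalamus median reached 5 CPM, 1480 (11.8%) had no count outside the hypothalamus, the clock-related genes Ciart and Usp2 among them. No fold is given for Per3, and its absence from these 3 regions cannot be told apart from how the tables were made.

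Averaged over regions and exposures, LPS was followed by higher Cry1, Cry2 and Per1, 3 of the 9 members tested, where 9.23% of all genes passed and 6.71% passed as higher. No member was lower. In the striatum, Cry1 had a median of 21.8 normalized CPM after saline (13.4 to 36.9, 21 libraries) and of 29.96 after LPS (18.5 to 139.5, 33 libraries). There 28 of the 33 LPS libraries lay above the saline median and 9 above the highest saline library. In the hippocampus the Cry1 medians were 15.2 (0 to 25.9) after saline and 17.5 (8.04 to 73.4) after LPS, and in the PFC 15.4 (0 to 27.0) and 20.04 (5.08 to 84.9). The hypothalamus had 7.70 (0 to 12.9) and 6.62 (0 to 26.4), so its median was not higher after LPS. The groups overlapped in every region. Cry1 had a log2 fold change of 0.49 (SE 0.11, 95% interval 0.27 to 0.71, edgeR adjusted p = 0.00141).

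Cry2 had saline and LPS medians of 137 (53.2 to 225) and 142 (84.1 to 575) in the hypothalamus, 54.9 (35.6 to 80.6) and 64.1 (37.1 to 181) in the hippocampus, 75.4 (36.5 to 131) and 85.8 (50.5 to 179.5) in the PFC, and 57.1 (14.7 to 79.1) and 60.4 (36.5 to 121) in the striatum. All 4 LPS medians were the higher ones, by less than the spread between libraries, and the groups overlapped in each region. The averaged log2 fold change of Cry2 was 0.28 (SE 0.06, 95% interval 0.15 to 0.40, edgeR adjusted p = 0.0011). Per1 had medians of 157 (76.0 to 328) and 167 (138 to 466) in the hypothalamus, 123 (39.4 to 223) and 171 (91.7 to 305) in the hippocampus, 237 (143 to 524) and 244 (137 to 389) in the PFC, and 137 (42.8 to 259.9) and 141 (77.2 to 397) in the striatum. The difference was widest in the hippocampus, where 24 of 30 LPS libraries lay above the saline median. Per1's averaged log2 fold change was 0.27 (SE 0.07, 95% interval 0.13 to 0.41, edgeR adjusted p = 0.00654).

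**Figure D2:**
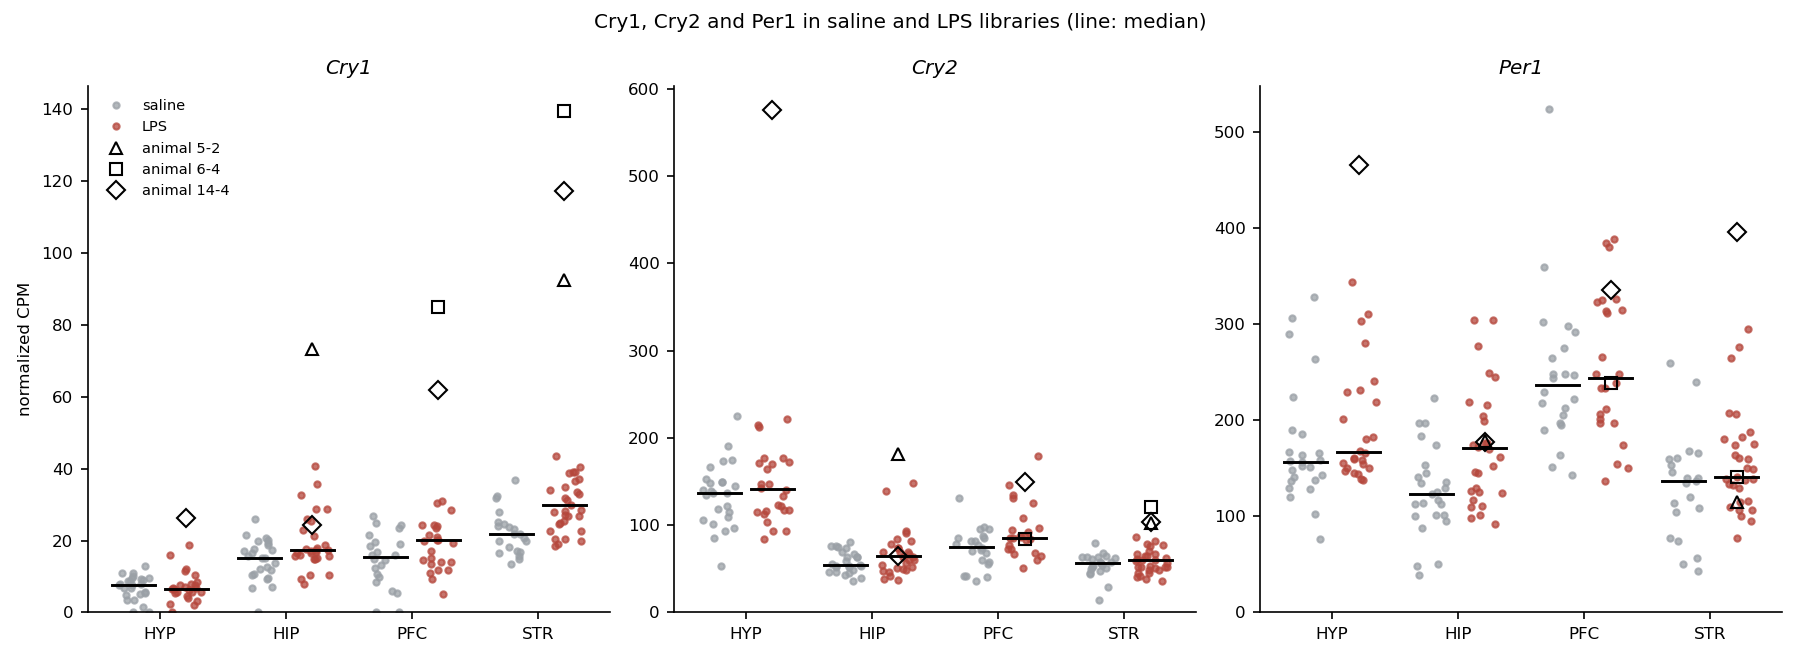
Normalized CPM of Cry1, Cry2 and Per1 in every library, by region and challenge, with a line at each median and open symbols for animals 5-2, 6-4 and 14-4. LPS and saline libraries overlap in every panel, and the highest Cry1 library of every region comes from an LPS animal, reaching 139.5 in the striatum.

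The remaining members did not pass. Their intervals reached 0.29 for Dbp and 0.26 for Arntl, about the size of the changes of Cry2 and Per1. For these genes the intervals thus do not separate no change from one of about that size. Arntl had a log2 fold change of 0.11 (95% interval −0.03 to 0.26, edgeR adjusted p = 0.381) and Clock 0.09 (−0.01 to 0.19, adjusted p = 0.272). Per2 stood at 0.01 (−0.16 to 0.18), Nr1d1 at −0.02 (−0.17 to 0.14), Nr1d2 at −0.02 (−0.13 to 0.08) and Dbp at 0.04 (−0.22 to 0.29), with adjusted p values of 0.975 or more. The median over the 9 members was 0.09, beside 0.03 over all genes.

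**Figure D3:**
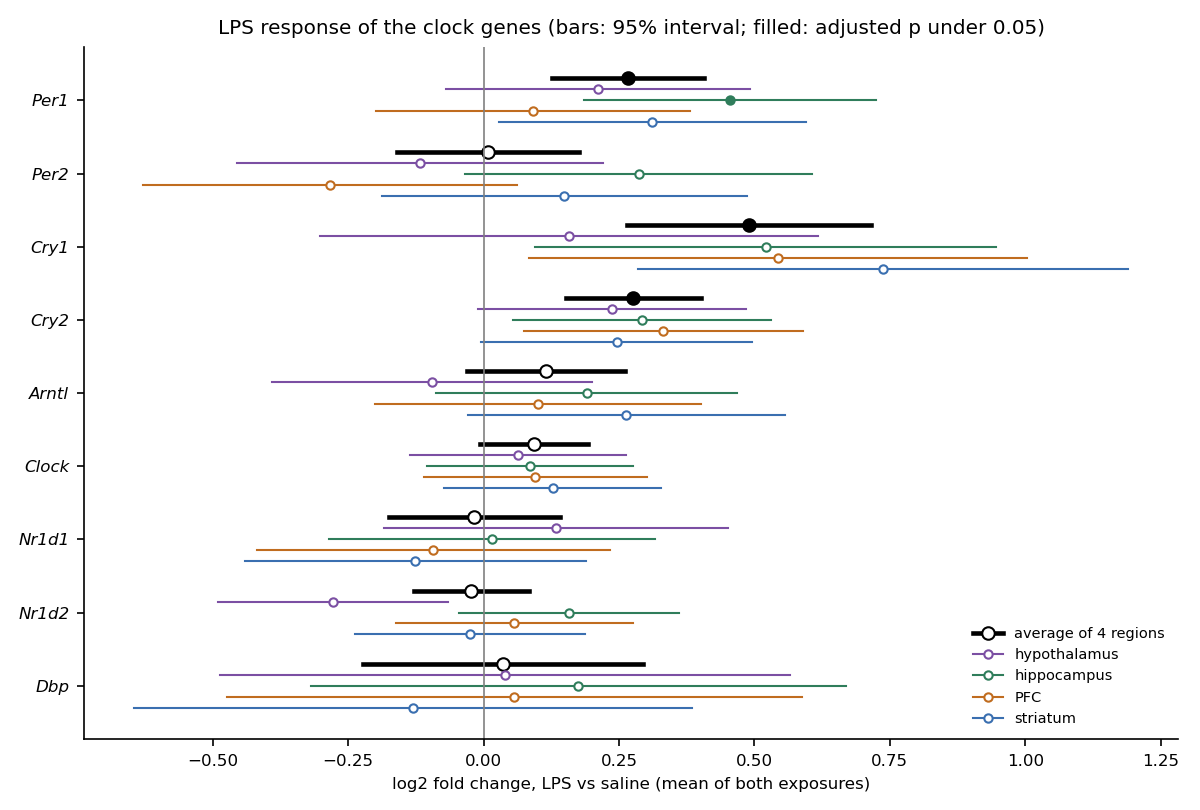
Log2 fold change of LPS against saline with 95% intervals for the 9 members tested, averaged over the 4 regions (black) and in each region (colours); filled points passed an adjusted p of 0.05. Cry1, Cry2 and Per1 pass on average, at 0.49, 0.28 and 0.27, and of the values within a region Per1 in the hippocampus passes, at 0.45.

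Regions of 1 animal are not independent samples. With 1 value per animal, the mean over its regions tested with limma, the log2 differences were 0.40 for Cry1 (adjusted p = 0.0232), 0.24 for Cry2 (adjusted p = 0.022) and 0.27 for Per1 (adjusted p = 0.0162), where 6.38% of genes passed. Of the 38 LPS animals, 31 lay above the median saline animal for Cry1, 26 for Cry2 and 29 for Per1, and 8, 6 and 5 lay above the highest saline animal. A group of 3 male LPS animals held the highest Cry1 library of every region. For Cry1, animal 6-4 (MOR–LPS) had 139.5 in the striatum and 84.9 in the PFC, the latter from a library of low depth. Animal 14-4 (MOR–LPS) had 117 in the striatum, 61.8 in the PFC and 26.4 in the hypothalamus, and animal 5-2 (SAL–LPS) had 73.4 in the hippocampus and 92.6 in the striatum. Without these 3 animals, a choice made after seeing the data, Cry1 stood at 0.31 (adjusted p = 0.0451), Cry2 at 0.21 (adjusted p = 0.0139) and Per1 at 0.24 (adjusted p = 0.0202).

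Other gene lists moved in the same averaged comparison. Of 8 glucocorticoid response genes, 7 were higher after LPS (median log2 fold change 0.59 over the list). Markers of cells that the NeuN+ gate should remove were also higher in part: 2 of 6 oligodendrocyte markers (median 0.34), 2 of 5 astrocyte markers (0.45), 2 of 5 microglia markers (0.44) and 1 of 4 endothelial markers (0.38). Of 5 neuronal markers 1 was lower, as was 1 of 5 markers of the suprachiasmatic nucleus (median 0.02), and none of 8 immediate early genes, which report recent neuronal activity, passed (median −0.04). In hippocampus libraries the summed oligodendrocyte markers had a median of 397 (216 to 1177) in SAL–SAL, 398 (223 to 923) in MOR–SAL, 319 (224 to 516.5) in SAL–LPS and 401 (235 to 3179) in MOR–LPS, with wide overlap. The part of these lists in the values of Cry1, Cry2 and Per1 was not tested.

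Region by region, Per1 in the hippocampus was the member that passed for LPS against saline (log2 fold change 0.45, SE 0.14, edgeR adjusted p = 0.0469), beside 2.45% of all genes in the hippocampus, 4.34% in the hypothalamus, 4.4% in the PFC and 0.385% in the striatum. That call was lost in 4 of 10 alternatives, among them the fit without the libraries of low depth, with adjusted p values of 0.0392 to 0.132 and log2 fold changes of 0.42 to 0.46. Cry1 was 0.16 in the hypothalamus, 0.52 in the hippocampus (adjusted p = 0.223), 0.54 in the PFC (adjusted p = 0.182) and 0.74 in the striatum (SE 0.23, adjusted p = 0.164). Cry2 was more even across regions, at 0.24, 0.29, 0.33 and 0.25. Nr1d2 in the hypothalamus went the other way, with medians of 99.6 (70.3 to 122) after saline and 76.2 (0 to 142) after LPS. There 4 of 26 LPS libraries lay above the saline median, and the difference did not pass (−0.28, 95% interval −0.49 to −0.07, adjusted p = 0.13). An F test of whether the response to LPS differed among the 4 regions passed for 0 of the 9 members, beside 4.13% of all genes, and the lowest adjusted p was that of Nr1d2 (0.242).

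The 5 comparisons between groups were tested within each region, giving 37 tests of a member per comparison. For the early exposure alone, MOR–SAL vs SAL–SAL, 0 of 37 passed, and of all genes 1.44% passed in the hypothalamus and 0% in each other region. The widest difference was that of Dbp in the hypothalamus, with medians of 12.6 (0 to 27.9) in SAL–SAL and 9.60 (4.15 to 17.4) in MOR–SAL (−0.51, adjusted p = 0.532). The 3 tests with the lowest p values before adjustment did not pass either. Nr1d1 in the hypothalamus had medians of 72.1 (30.4 to 113.9) in SAL–SAL and 44.8 (31.0 to 88.4) in MOR–SAL (−0.48, adjusted p = 0.233). Per1 there had 159.1 (76.0 to 328) and 147 (102 to 224) (−0.40, adjusted p = 0.239). In the PFC, Nr1d2 had 65.7 (15.3 to 96.6) and 49.3 (26.7 to 73.9) (−0.51, adjusted p = 0.359). Each of these pairs overlapped, and a 95% interval for Per1 in the hypothalamus ran from −0.75 to −0.04 before adjustment over genes.

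**Figure D4:**
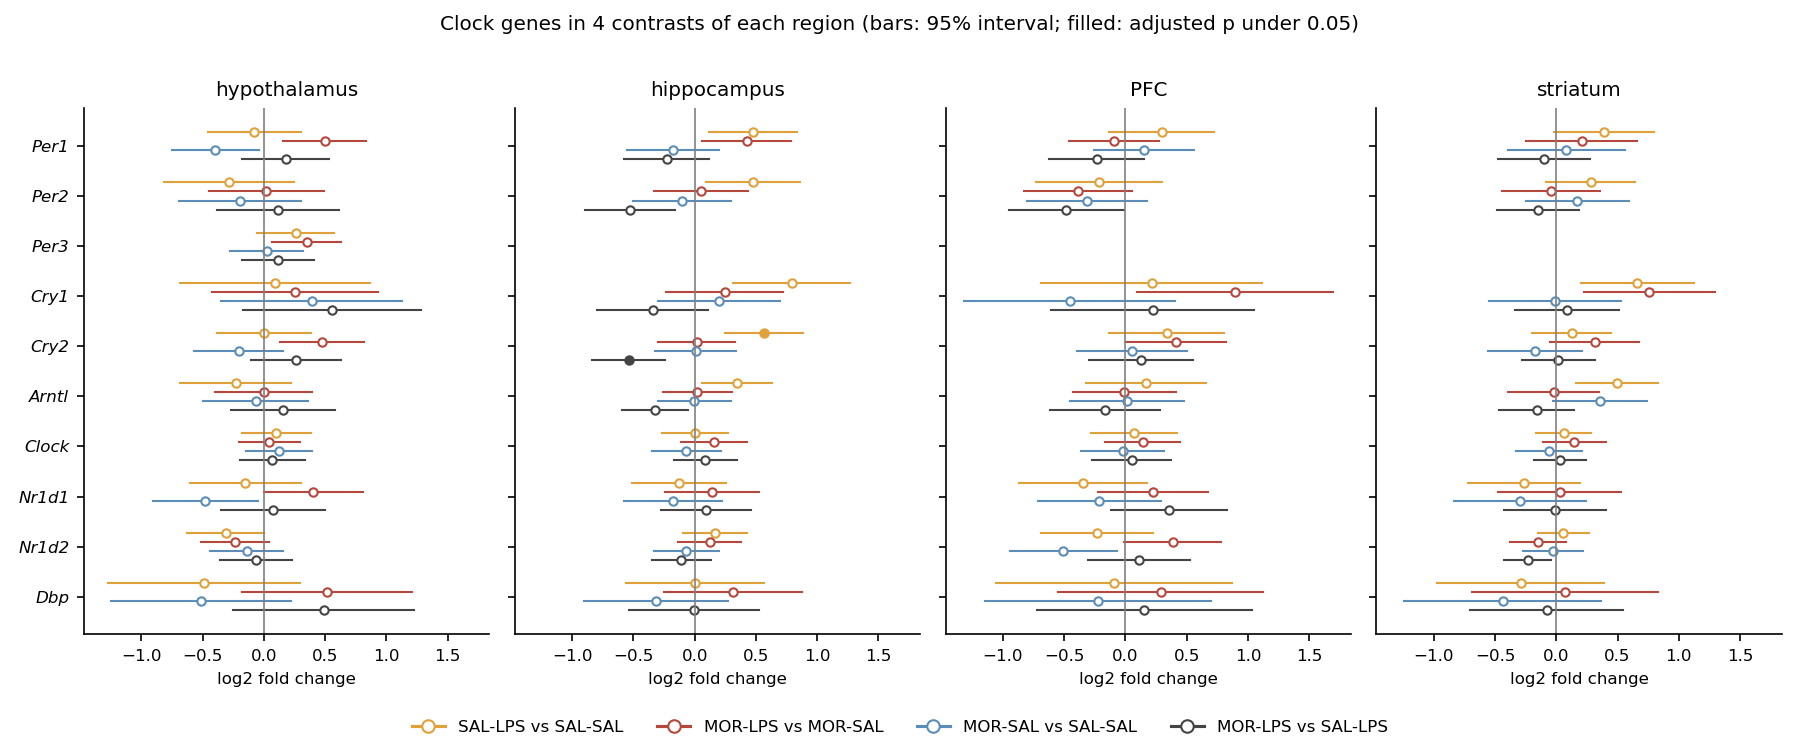
Log2 fold changes with 95% intervals of every member, one panel per region, for 4 comparisons between groups (colours); filled points passed an adjusted p of 0.05. The filled points are those of Cry2 in the hippocampus, 0.57 for SAL–LPS vs SAL–SAL and −0.54 for MOR–LPS vs SAL–LPS.

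In mice without early morphine, LPS was followed by higher Cry2 in the hippocampus. Its levels were 58.6 ± 9.41 normalized CPM (SD, n = 13; 45.5 to 76.4, median 54.9) in SAL–SAL and 86.2 ± 40.7 (n = 14; 41.6 to 181, median 71.4) in SAL–LPS. The SAL–LPS libraries reached higher than any SAL–SAL library, and the groups overlapped at the low end. The log2 fold change was 0.57 (SE 0.16, edgeR adjusted p = 0.0416), the only 1 of 37 member tests to pass in SAL–LPS vs SAL–SAL, where 2.55% of genes passed in the hippocampus, 0.246% in the hypothalamus, 0% in the PFC and 0.0128% in the striatum. Cry1 in the hippocampus was next, with medians of 12.1 (6.90 to 25.9) and 18.5 (8.04 to 73.4) (0.79, adjusted p = 0.0589). In the striatum, Arntl had medians of 93.1 (70.0 to 194.9) and 170.9 (78.3 to 236) without passing (0.50, adjusted p = 0.177).

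After early morphine the same gene in the hippocampus stood at 57.2 ± 15.5 (n = 12; 35.6 to 80.6, median 56.0) in MOR–SAL and 59.2 ± 15.9 (n = 16; 37.1 to 93.1, median 54.3) in MOR–LPS. Cry2 was therefore lower in MOR–LPS than in SAL–LPS (−0.54, SE 0.15, edgeR adjusted p = 0.0398), again the only 1 of 37 to pass, where 2.73% of genes passed in the hippocampus, 1.03% in the hypothalamus, 0.0046% in the PFC and 0% in the striatum. The 2 comparisons share the SAL–LPS libraries. The interaction, which tests whether the response to LPS differed with exposure, did not pass for Cry2 (−0.55, adjusted p = 0.235). The interaction passed for 0 of 37 member tests, beside 3.8% of genes in the hypothalamus, 2.35% (hippocampus), 1.78% (PFC) and 0.00854% (striatum).

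Both Cry2 calls were lost in most other fits, 12 of 18 for SAL–LPS vs SAL–SAL and 14 of 17 for MOR–LPS vs SAL–LPS, without a change of direction. Leaving out 1 litter at a time kept them in 7 and 3 of 18 cases, with log2 fold changes of 0.39 to 0.66 and −0.64 to −0.40. Without the 3 animals named above they were 0.45 and −0.42. In males alone they were 1.03 and −0.96, in females alone 0.07 and −0.11, and the difference between the sexes did not pass (0.97, adjusted p = 0.121; −0.90, adjusted p = 0.0646). With a stricter filter on low counts neither call was kept, and 0.0132% of genes passed in the first comparison. Astrocyte marker sums of hippocampus libraries had medians of 383 (233 to 1017) in SAL–SAL, 364 (286 to 664) in SAL–LPS and 518 (229 to 1331) in MOR–LPS. These ranges overlapped widely, and the part of the sums in the result was not tested.

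**Figure D5:**
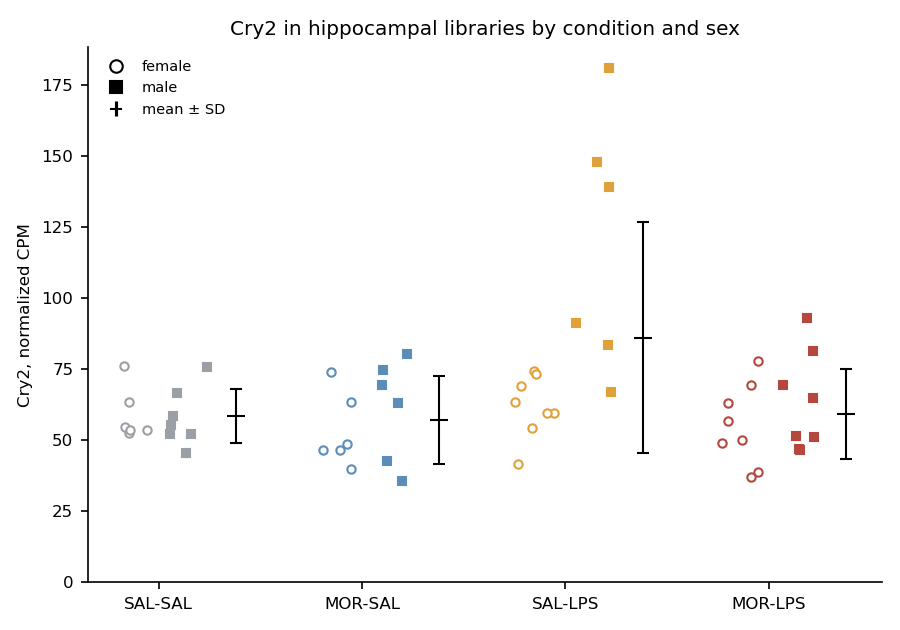
Normalized CPM of Cry2 in each hippocampus library of the 4 groups, females as open circles and males as filled squares, with the mean and SD beside them. SAL–LPS has the highest mean (86.2) and the widest spread (SD 40.7), and the other 3 groups have means of 57.2 to 59.2.

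For MOR–LPS vs MOR–SAL 0 of 37 passed, beside 6.27% of genes in the hypothalamus, 0.467% (hippocampus), 0.0184% (PFC) and 1.39% (striatum). The members nearest to the threshold were in the hypothalamus. Per1 had medians of 147 (102 to 224) in MOR–SAL and 173 (138 to 466) in MOR–LPS (0.50, SE 0.17, adjusted p = 0.0658). Cry2 had 129 (85.7 to 175) and 156 (84.1 to 575) (0.47, adjusted p = 0.0859), and Per3 had 219 (172 to 240.3) and 242 (127 to 470.1) (0.35, adjusted p = 0.126). All 3 highest values came from animal 14-4, and all 3 genes passed with DESeq2. That hypothalamus library had no count of the hypothalamic markers, and its sums stood at 6.79 times the region's median for astrocyte markers, 4.88 times for oligodendrocyte markers and 4.83 times for glucocorticoid response genes. The groups also differed in these lists: the astrocyte sum had a median of 103 (73.4 to 174) in MOR–SAL and 473 (111 to 1149) in MOR–LPS, and the glucocorticoid response sum 85.5 (75.8 to 189) and 233 (47.6 to 581). Their part in the values of Per1, Cry2 and Per3 was not tested.

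Males and females differed for 0 of 37 member tests, beside 3.45% of genes in the hypothalamus, 2.51% (hippocampus), 0.709% (PFC) and 0.841% (striatum). Cry2 in the hippocampus came closest, with males higher by 0.35 (edgeR adjusted p = 0.0786). The averaged response of Cry1 to LPS was 0.20 in females and 0.60 in males on 1 value per animal, and the difference of 0.40 did not pass (limma adjusted p = 0.64, 0% of genes passing).

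Of 18 further clock genes, 17 could be tested in the hypothalamus and 15 in each other region. Between regions, 9 to 11 of the 15 passed in each pair, beside 45.4% to 67.9% of all genes. In the averaged LPS comparison 1 of 15 passed, beside 9.23% of all genes. It was Npas2, a paralog of Clock (0.38, adjusted p = 0.0163). In the hypothalamus, Ciart, a repressor of CLOCK and BMAL1, was higher in MOR–LPS than in MOR–SAL (0.89, adjusted p = 0.00921) and lower in the MOR–SAL group than in SAL–SAL (−0.94, adjusted p = 0.022). Usp2, a deubiquitinase with rhythmic expression, was also higher in MOR–LPS than in MOR–SAL (1.37, adjusted p = 0.00148) with a positive interaction (1.46, adjusted p = 0.023). Bhlhe41, a repressor of E-box genes, was lower in that comparison (−0.51, adjusted p = 0.0388). The astrocyte and glucocorticoid response sums given above for these hypothalamus groups moved with Ciart and Usp2, and the astrocyte median of SAL–SAL, 198 (51.9 to 657), also lay above that of MOR–SAL. Their part in these values was not tested.

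Rora, a nuclear receptor that activates Arntl, was lower in the hypothalamus in SAL–LPS than in SAL–SAL (−1.51, adjusted p = 0.0118) and in MOR–SAL than in SAL–SAL (−1.27, adjusted p = 0.00739), with an interaction of 1.397 (adjusted p = 0.0229). Rora is also a marker of the thalamus, which borders the hypothalamus, and the summed thalamic markers of hypothalamus libraries had a median of 319 (81.4 to 3820) in SAL–SAL, 149.5 (81.7 to 781) in MOR–SAL, 191 (46.7 to 507) in SAL–LPS and 191 (78.9 to 577) in MOR–LPS. SAL–SAL was the highest group for this sum, as it was for Rora in both calls. Rora is itself 1 of the 4 genes summed, with a hypothalamus median of 84.9 beside 184 for the sum. The 2 are therefore not independent, and a sum without Rora was not made. The part of thalamic tissue in the Rora values was not tested. Averaged over exposures, Rora was also lower after LPS in the hypothalamus (−0.80, adjusted p = 0.03). The LPS response in the hypothalamus minus that in the hippocampus was −1.21 for Rora (adjusted p = 0.0239) and −2.03 for its paralog Rorb (adjusted p = 0.0141). Cipc, whose product binds CLOCK, was lower in males than in females in the hypothalamus (−0.59, adjusted p = 0.0249). In the hippocampus, Hlf, a transcription factor of the same family as Dbp, was higher in SAL–LPS than in SAL–SAL (0.44, adjusted p = 0.0403). In that comparison 2.55% of genes passed, and 0.0132% after the stricter filter on low counts.

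Once the means of group and sex were removed within each region, the 36 pairs of members were compared over 200 libraries, a description in which the genes of a library share its depth and preparation. The mean over regions of Pearson's r on log2 levels had a median of 0.20 over the pairs, was negative in 5 of them and ran from −0.16 (Arntl and Dbp) to 0.50. The highest values were 0.50 between Per2 and Arntl, 0.48 between Per1 and Per2, 0.46 between Cry1 and Clock, 0.42 between Cry1 and Arntl and 0.40 between Per1 and Cry2. Many other genes lay closer to these members. Among 9867 genes ranked by likeness, the partners stood at ranks from 34 (Per1 for Cry2) to 1298 (Cry1 for Arntl). Regions differed within a pair, as for Per1 and Cry2 with 0.79 in the hypothalamus and 0.10 in the hippocampus. Of 9867 genes, those most like Per1 were Arfgap1 (0.60), Actn4 (0.59) and Camkk2 (0.57). Those most like Nr1d1 were Sec24c (0.56), Syvn1 (0.55) and Ndrg4 (0.55), and those most like Dbp were Sft2d3 (0.61), Mlf2 (0.60) and Tmem158 (0.60).

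A member's deviation from its group mean was compared between 2 regions of the same animal, in 54 such pairs of regions over 31 to 41 animals each. Correlations were small, with a median r of 0.05, and 37 of 54 were positive. Over all 9868 genes compared, the median r ran from −0.01 to 0.06 in the 6 pairs of regions and was positive in 5 of them. The highest was that of Cry1 between hypothalamus and PFC (r = 0.40, permutation test adjusted p = 0.584). The lowest was that of Nr1d1 between the same regions (r = −0.57, rho = −0.50, permutation test adjusted p = 0.0853; r = −0.40 without 2 animals). None of the 54 passed after adjustment.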

How the data were processed

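Nuclear RNA from NeuN+ nuclei was sequenced with a modified Smart-seq3 protocol. The authors trimmed reads with Trim Galore 0.6.7, aligned them to mm10 with STAR 2.7.10a and counted reads per gene of the GENCODE annotation, with a check by HTSeq 0.12.4. They deposited raw counts and a CPM table per region, the latter without mitochondrial genes. The members and all gene lists were chosen with earlier results of these data known. From the counts, edgeR 4.0.16 (R 4.3.3) was run per region with TMM scaling, genes with a total count over 10, group and sex as terms and Benjamini-Hochberg adjustment over all genes. A second edgeR fit held all 208 libraries and the 19478 genes passing that filter in every table, with a mean for each of 16 region and group cells and sex. Levels are normalized CPM on the scale of this fit, and lengths and positions come from GENCODE's mm10 annotation. Limma 3.58.1 and DESeq2 1.42.0 served as alternatives, as did limma on the log2 of CPM with a pseudocount. The scripts were tested on simulated counts with known changes. Both the regional edgeR fit and the F test of the all-library fit called more unchanged genes there than an adjusted p of 0.05 allows. In the regional fit these were mostly genes of very low counts. The shares of all genes called may therefore be too high, and the adjusted p values of members and further clock genes in the regional fit too low. All 10 members were named, with the further clock genes that passed in a comparison of groups, challenges or sexes and, for Per1, Nr1d1 and Dbp, the 3 genes with the highest mean correlation. Litter means the first number of the replicate label, a reading not stated there. These numbers are shared by groups of different challenge and lie within 1 exposure, so p-values for exposure measure the spread between animals.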

Additional observations from a re-analysis of the deposited data

Results flagged for a closer look

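Of 27 combinations of a member and a group of up to 10 libraries, 4 held a library far from the others by Dixon's criterion, where chance gives about 1 in 20. Per2 in the MOR–SAL striatum reached 188 normalized CPM in library 17-4, the next highest being 121. Cry2 in the same group fell to 14.7 in library 15-0, the next lowest being 43.9. Nr1d2 in the SAL–SAL PFC fell to 15.3 in library 4-1, the next lowest being 56.0. Dbp in the SAL–LPS PFC reached 55.5 in library 4-4, one of low depth, the next highest being 30.5.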

How the results depend on the processing

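The 3 members higher after LPS on average over regions passed in all 11 alternatives, with log2 fold changes of 0.31 to 0.53 for Cry1, 0.21 to 0.31 for Cry2 and 0.23 to 0.30 for Per1 and adjusted p values of at most 0.0451, 0.022 and 0.0251. With the animal as a replicate block they were 0.53, 0.24 and 0.25. Of the comparisons of regions, 41 to 46 of 54 passed. For MOR–SAL vs SAL–SAL and the interaction, 0 passed in every alternative. For SAL–LPS vs SAL–SAL the count of 1 became 2 (Cry1 and Cry2 in the hippocampus) with a bias-adjusted fit chosen after seeing the data, with no sex term and without low-depth libraries. It became 0 with DESeq2, females alone, filterByExpr, library size as the only scaling, no filter, only the groups compared, limma on log2 CPM with a pseudocount of 0.1 or 1, limma-voom with and without a correlation within litters, the litter as a replicate block (Cry2 0.72) and without animals 14-4, 5-2 and 6-4. Leaving out 1 litter gave 0 to 2. For MOR–LPS vs MOR–SAL the count of 0 became 3 (Per1, Cry2 and Per3 in the hypothalamus) with DESeq2 or its size factors, and 1 (Per1) with the bias-adjusted fit, only the groups compared and without low-depth libraries, and 0 to 1 without 1 litter. For MOR–LPS vs SAL–LPS the count of 1 became 0 with DESeq2, its size factors, filterByExpr, library size only, limma on log2 CPM, limma-voom with and without litters, males alone, no filter, only the groups compared, without those 3 animals and without libraries against the labelled sex. It stayed at 1 in females alone through Per2 in the hippocampus (−1.08, adjusted p = 0.0373), and was 0 to 1 without 1 litter. The adjusted p of Cry2 in the hippocampus ranged from 0.0343 to 1 and from 0.0286 to 0.8288 in these 2 comparisons. LPS within each region gave 2 with library size only (Cry2 in the PFC, Nr1d2 in the hypothalamus) and 0 with limma-voom, with the animal as a block and without low-depth libraries. No result changed direction, and the causes of these changes were not tested. Same-numbered litters deviated together little, with correlations of −0.05 to 0.03 in the 4 regions, so the litter number is given as an alternative only. Counts were lowest for Cry1 and Dbp, with medians of 42 and 66 per hypothalamus library.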

Other observations

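Animals 14-4, 6-4 and 5-2, chosen for their Cry1, were also ranked for the other members. In the 33 combinations of a region and a member other than Cry1, their 8 libraries held the highest value in 11, a count not made for all genes. Over all 37 combinations an LPS animal held it in 29, where 115 of the 208 libraries came from LPS animals. The ranks of Nr1d1, Nr1d2 and Dbp spread widely over these 8 libraries. Whether they spread more widely than those of any 8 libraries was not tested. Counted from the highest, Nr1d1 ran from rank 4 of 51 in the hypothalamus of animal 14-4 to 51 of 55 in the hippocampus of animal 5-2. Nr1d2 ran from 9 of 55 in the hippocampus to 50 of 51 in the hypothalamus, both of animal 14-4, and Dbp from 7 of 51 in the hypothalamus to 54 of 54 in the striatum of the same animal. Cry2 in the hypothalamus of animal 14-4 reached 575 normalized CPM, 4.13 times the region's median. The summed immediate early genes of these animals ranked low in most of their libraries: counted from the highest, animal 5-2 was at rank 54 of 55 in the hippocampus and 54 of 54 in the striatum, and animal 6-4 at 46 of 48 in the PFC and 51 of 54 in the striatum. Animal 14-4 was at 41 of 51 in the hypothalamus, 48 of 48 in the PFC and 53 of 54 in the striatum, but at 12 of 55 in the hippocampus. Fkbp5, a glucocorticoid response gene, was highest of its region in animal 14-4 in the hypothalamus, in animal 5-2 in the hippocampus and in animal 6-4 in the PFC. The sum of the whole glucocorticoid response list ranked 2 of 51, 36 of 55 and 14 of 48 in these libraries, and another of its genes, Tsc22d3, ranked 5 of 51, 53 of 55 and 24 of 48. Oligodendrocyte markers of animal 14-4 summed to 9.07 times the median in the PFC and 5.36 times in the striatum, against 0.74 and 0.62 times in those regions of animal 6-4 and 0.78 and 1.11 times in the hippocampus and striatum of animal 5-2. In the hippocampus library of animal 14-4 the oligodendrocyte sum was at rank 29 of 55 and Cry1 at 24.2, rank 10, while the astrocyte and glucocorticoid response sums were both at rank 6.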
